A study of Homo sapiens with 9 samples.

Results

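The genes described here are 43 genes whose products fill the granules of myeloid cells or mark their maturation, among 25680 gene symbols counted by RNA sequencing in SKNO-1 cells. SKNO-1 is a human acute myeloid leukemia line that carries the RUNX1-RUNX1T1 fusion and was grown with GM-CSF in the study's methods. The members were taken by gene symbol, and where a symbol had several RefSeq rows the row with the highest total over all samples was used. There were 9 samples in 3 groups of 3. EV was the control, and its abbreviation is not explained in the labels. SH2 and SH3 each carried a different shRNA against ASXL2, a chromatin regulator of the Polycomb-associated ASXL family. The study describes its control as a control shRNA, and all groups shared the same fusion-positive line. In each group the samples were numbered 1, 13 and 25, with no statement of what these numbers stand for. The study calls its replicates biological, and nothing in the labels ties them to separate cultures, so the p-values measure the spread between these samples. Of the 43 genes, 34 passed the filter on low counts that 14199 genes passed, and the other 9 are described by their counts.

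Granulocyte precursors make granule proteins in waves. Primary, or azurophil, granules are filled first, in promyelocytes, with myeloperoxidase and the neutrophil serine proteases. Secondary and tertiary granules follow in myelocytes and later cells with lactoferrin, lipocalin and cathelicidin, and S100 proteins and formyl peptide receptors accumulate as cells mature. Eosinophils and mast cells package their own cationic proteins and proteases, and the phagocyte NADPH oxidase produces superoxide at granule and plasma membranes. RUNX1, PU.1 and C/EBP factors are classical activators of this program, and blasts with the RUNX1-RUNX1T1 fusion typically express myeloperoxidase and carry Auer rods, which derive from primary granules.

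The libraries totalled 62079356 to 79254366 counts. After reduction to a single row for each gene, 27714431 to 35406063 remained, and 3 counts then corresponded to 0.0847 to 0.108 CPM, the count for every 1000000 counts of the library. All CPM values were scaled by TMM, a between-sample normalization. The targeted gene followed the labels: ASXL2 stood at 67.9, 67.9 and 74.7 CPM in EV, at 30.4, 36.2 and 36.2 CPM in SH2 and at 26.9, 29.0 and 41.1 CPM in SH3, in the order of the numbers 1, 13 and 25. Knockdown was partial, and the EV samples did not overlap either hairpin. Among markers of the labelled myeloblast, KIT was at 237 to 419 CPM, CD33 at 88.2 to 112 CPM and RUNX1T1 at 111 to 138 CPM, whereas CD34 was at 0.0680 to 0.309 CPM. The extraction text in the labels describes sorted bone marrow cells. Erythroid, stromal and epithelial markers were nearly absent, and so were T cell markers except CD8A, at 1.10 to 2.04 CPM. CD3E, CD3G, HBB, COL1A2, KRT5 and KRT19 had no count in any sample. Of B cell markers, MS4A1 had no count and CD79B was at 46.9 to 64.6 CPM. Of megakaryocyte markers, PF4 had no count and ITGA2B was at 55.7 to 144 CPM. The 9 samples grouped by number: deviations from the group means correlated between all 9 pairs of same-numbered samples. Values with the number as a block in the fit are therefore given wherever they change a call.

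MPO, a primary granule gene, was the most abundant of the 43. MPO, which encodes the peroxidase that makes hypochlorous acid (chromosome 17, 56347216 to 56358296, minus strand, GRCh37), had more counts than any other gene in 8 of 9 samples. It ranked 3 in SH3 number 1, where EEF1A1 came first. MPO alone took 0.648 to 1.00% of the counts kept at a single row per gene, and the 43 genes together took 0.974 to 1.36%. MPO stood at 9309, 8293 and 7151 CPM in EV, at 10240, 8584 and 6366 CPM in SH2 and at 7164, 9724 and 9091 CPM in SH3. The 3 groups overlapped completely, and MPO differed from EV by 0.03 on the log2 scale (SE 0.20) in SH2 and by 0.07 (SE 0.20) in SH3. In bulk RNA of this kind, a change in the number of cells of a type and a change in RNA per cell cannot be told apart.

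Levels between genes were compared per length of the GENCODE canonical transcript, as CPM per kilobase averaged over the 3 EV samples. MPO was highest at 2566 CPM per kilobase. Next came CYBA, the p22phox subunit of the NADPH oxidase, at 436, ELANE, neutrophil elastase, at 399, and CST3, the protease inhibitor cystatin C, at 368 CPM per kilobase. CD63, a granule membrane tetraspanin, reached 223, SERPINB1, an inhibitor of neutrophil serine proteases, 209, NCF4, the p40phox subunit, 193, and SRGN, the proteoglycan core on which granule contents are packed, 172 CPM per kilobase. PRG2, eosinophil major basic protein, and AZU1, azurocidin, were both at 131.3 CPM per kilobase, and PRTN3, proteinase 3, was at 125. The ranges of the EV samples overlapped between many neighbours in this order, such as PRG2, AZU1 and PRTN3. At the lower end of the granule proteases, CTSG, cathepsin G, was at 10.3 CPM per kilobase.

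**Figure D1:**
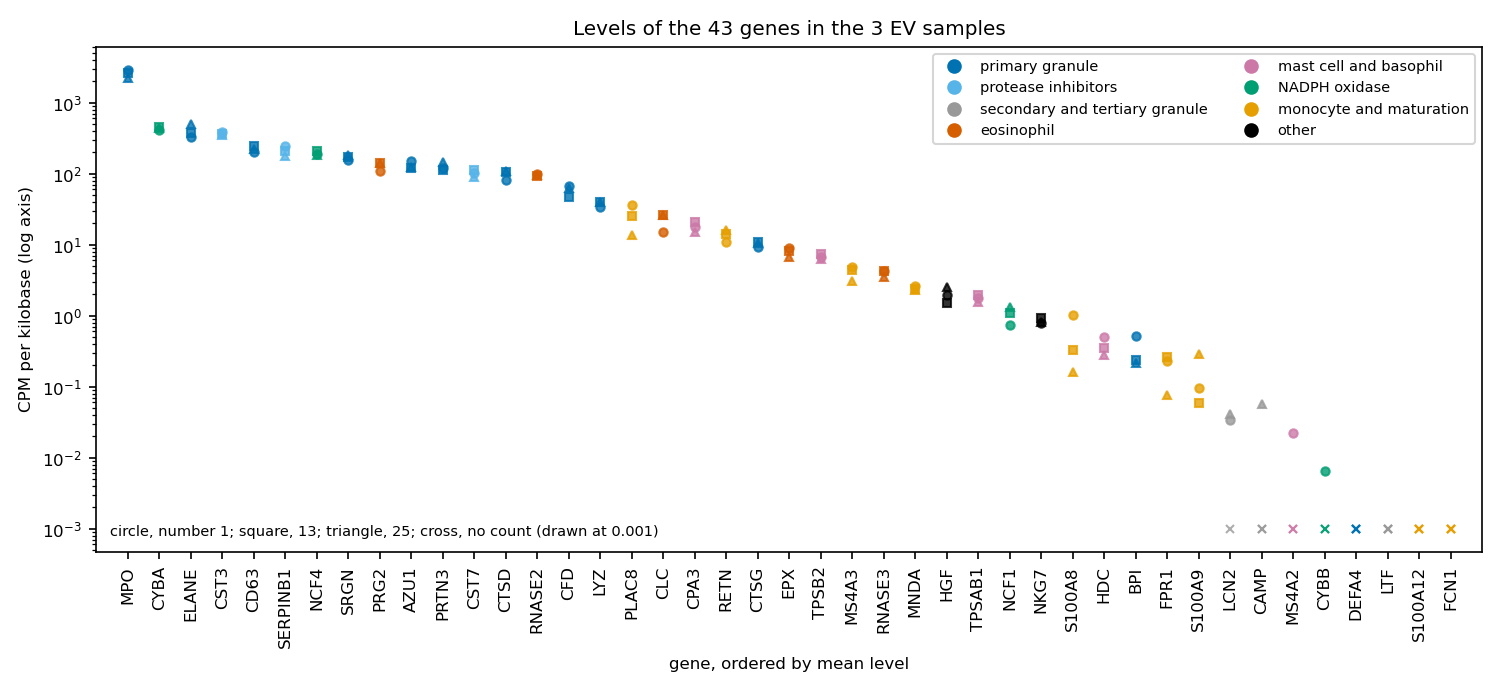
CPM per kilobase of transcript (log axis) of the 43 genes in the 3 EV samples, ordered by mean and colored by role; shapes give the sample number and crosses mark samples without a count. MPO stands alone at the top with a mean of 2566, and 4 genes on the right have no count in any EV sample.

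The genes of later granules had few or no counts. LTF, lactoferrin, had no count in any of the 9 samples, and LCN2, lipocalin 2, and CAMP, cathelicidin, had at most 2 counts in any sample. DEFA4, a late primary granule defensin, and FCN1, the monocyte lectin ficolin 1, also had no count in any sample. S100A12 had at most 1 count, S100A9 at most 8, MS4A2, the beta chain of the IgE receptor, at most 5, and CYBB, the gp91phox catalytic subunit of the oxidase, at most 2. A count of 0 allows up to 3 counts in a library, and a knockdown effect was not detectable for these 9 genes at this depth. The oxidase was thus unevenly represented: CYBA and NCF4 were abundant, NCF1, the p47phox subunit, stood at 0.990 to 2.49 CPM, and the catalytic subunit was at the limit of detection.

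The genes of 3 neutrophil serine protease homologues and CFD (complement factor D) lie next to each other on chromosome 19, in the order AZU1, PRTN3, ELANE and CFD. All are on the plus strand within 42.8 kb (825097 to 867884, GRCh37). ELANE was at 300.0, 338 and 451 CPM in EV, at 385, 316 and 437 CPM in SH2 and at 252, 297 and 423 CPM in SH3. PRTN3 was at 117, 110 and 144 CPM in EV, at 139, 92.5 and 137 CPM in SH2 and at 127, 85.1 and 125 CPM in SH3. AZU1 was at 135, 109 and 113 CPM in EV, at 151, 104 and 107 CPM in SH2 and at 146, 110 and 125 CPM in SH3. The groups overlapped for each of these genes. CFD was at 79.02, 56.2 and 74.7 CPM in EV, at 93.3, 42.9 and 71.3 CPM in SH2 and at 131, 44.02 and 97.9 CPM in SH3. CFD was lowest in the sample numbered 13 of every group. None of the 4 genes passed the test against EV for either hairpin, with or without the block. In the comparison of sample numbers below, AZU1 and CFD were called higher in number 1 and ELANE lower. PRTN3 was not called (0.17, SE 0.08, adjusted p = 0.106 by edgeR). The promoter of ELANE was not available, and those of the other 3 genes are shown. Each is the 250 bases before the RefSeq start on GRCh38.p14, read on the gene's strand, with capitals for matches on either strand to TGTGGT (RUNX), GAGGAA (PU.1) or TTNNGNAAT (C/EBP).
AZU1, chr19:827587-827836: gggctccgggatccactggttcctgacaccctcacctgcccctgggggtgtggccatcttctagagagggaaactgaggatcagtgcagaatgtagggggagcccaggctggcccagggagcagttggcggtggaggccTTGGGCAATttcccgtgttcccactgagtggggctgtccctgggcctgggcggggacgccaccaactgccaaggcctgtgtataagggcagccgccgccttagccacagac
PRTN3, chr19:840749-840998: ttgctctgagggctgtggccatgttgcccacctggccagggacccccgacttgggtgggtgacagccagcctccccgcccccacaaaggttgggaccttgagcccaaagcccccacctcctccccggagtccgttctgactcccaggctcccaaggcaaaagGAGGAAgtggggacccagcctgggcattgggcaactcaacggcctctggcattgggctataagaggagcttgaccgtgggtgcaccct
CFD, chr19:859414-859663: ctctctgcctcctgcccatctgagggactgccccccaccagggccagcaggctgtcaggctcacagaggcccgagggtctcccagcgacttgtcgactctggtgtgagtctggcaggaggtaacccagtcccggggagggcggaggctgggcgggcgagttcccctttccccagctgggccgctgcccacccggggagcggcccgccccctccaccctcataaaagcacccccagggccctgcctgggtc
The AZU1 window held a C/EBP match 111 bases before the start and the PRTN3 window a PU.1 match 88 bases before it. The CFD window held no match to these letters, which says nothing about the factors. RefSeq promoters could be searched for 31 of the 43 genes. A RUNX match was found in 4 of these 31 and in 10.98% of all 35116 promoters, a PU.1 match in 15 of 31 and in 23.6% of all promoters, and a C/EBP match in 6 of 31 and in 9.85%.

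Of the remaining primary granule genes none passed edgeR's test under either hairpin with all samples. CD63 was at 204, 249 and 231 CPM in EV, at 251, 244 and 232 CPM in SH2 and at 237, 310 and 261 CPM in SH3. CTSD, the lysosomal protease cathepsin D, was at 166, 215 and 223 CPM in EV, at 198, 252 and 219 CPM in SH2 and at 164, 275 and 234 CPM in SH3. LYZ, lysozyme, was at 50.5, 58.6 and 59.4 CPM in EV, at 61.9, 61.9 and 55.6 CPM in SH2 and at 48.2, 79.4 and 60.7 CPM in SH3. The groups overlapped for all 3 genes. SRGN did not overlap between SH3 and the other groups. It was at 192, 212 and 226 CPM in EV, at 222, 227 and 195 CPM in SH2 and at 299, 327 and 238 CPM in SH3, so that SH3 lay above every EV and SH2 sample. The SH3 difference from EV was 0.46 on the log2 scale (SE 0.13, adjusted p = 0.932; 0.45 with the block, adjusted p = 0.0853) and did not pass edgeR's test. DESeq2 with the block called SRGN in SH3 against EV (adjusted p = 0.00209) and against SH2 (adjusted p = 0.00907). BPI, the bactericidal permeability-increasing protein, was low, at 0.962, 0.442 and 0.400 CPM in EV, at 1.10, 0.846 and 0.728 CPM in SH2 and at 2.25, 1.20 and 0.619 CPM in SH3. BPI was above the EV sample of the same number in 6 of 6 pairs, with a difference of 1.14 in SH3 (SE 0.28, adjusted p = 0.0972 with the block). CTSG ranged from 8.39 to 17.9 CPM over all samples.

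No granule protease inhibitor passed edgeR's test under either hairpin with all samples. SERPINB1 was at 599, 518 and 436 CPM in EV, at 649, 456 and 409 CPM in SH2 and at 602, 474 and 414 CPM in SH3. CST3 was at 307, 290.1 and 278 CPM in EV, at 317, 264 and 278 CPM in SH2 and at 302, 267 and 302 CPM in SH3. Both sets overlapped fully. CST7, cystatin F, an inhibitor of lysosomal cysteine proteases, was at 92.5, 99.1 and 80.3 CPM in EV, at 108, 117 and 61.4 CPM in SH2 and at 108, 191 and 107 CPM in SH3. CST7 in SH3 differed from EV by 0.58 (SE 0.28, adjusted p = 0.971), or by 0.53 with the block (SE 0.15, adjusted p = 0.122). DESeq2 with the block called it against EV (adjusted p = 0.00697) and against SH2 (adjusted p = 0.0278), and edgeR with the block called both when SH3 number 1 was left out. The CST7 difference between SH3 and SH2 was 0.50 (SE 0.28, adjusted p = 0.998; adjusted p = 0.255 with the block), and without SH3 number 13 it fell to 0.17.

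In the fit without the block, edgeR's quasi-likelihood test called no gene in any of the 4 knockdown comparisons, which is 0% of the 14199 genes and 0 of the 34 members. DESeq2 in the same design called 0 members in each. At an unadjusted p under 0.05, the test found 2 members in SH2 against EV (MS4A3 and NCF1, both higher), where 5.37% of all genes passed. In SH3 against EV it found 4 (RETN, SRGN, PRG2 and BPI, all higher), against 5.09% of all genes. For the mean of both hairpins against EV it found 4 (MS4A3, RETN, PRG2 and NCF1), against 6.63% of all genes, and between SH3 and SH2 it found 3 (SRGN, RETN and TPSB2, higher in SH3), against 2.06%. With the sample number as a block, no member was called in SH2 against EV, where 0.282% of genes were called (5 members had an unadjusted p under 0.05, against 18.7% of all genes), and 1 member, RETN, was called in SH3 against EV, where 0.416% were called (12 members had an unadjusted p under 0.05, against 18.7% of all genes). For the mean of both hairpins 2 members were called, RETN higher and HGF lower, where 1.1% of genes were called, 36 of them higher and 120 lower (11 members had an unadjusted p under 0.05, against 20.4% of all genes). Between SH3 and SH2 no member was called, where 0.106% of genes were called (9 members had an unadjusted p under 0.05, against 11.9% of all genes). DESeq2 with the block called 1 member in SH2 against EV (MS4A3), where it called 2.6% of all genes, and 5 in SH3 against EV (RETN, SRGN, CST7 and EPX higher, HGF lower), where it called 3.34%. For the mean of both hairpins it called 2 (RETN and HGF), against 4.43% of all genes, and between SH3 and SH2 it called 3 (SRGN, RETN and CST7), against 1.09%. The comparisons against EV share the same EV samples. The median log2 difference of the 34 members with the block was 0.02 in SH2 and 0.27 in SH3, and the median of all tested genes was 0.01 in both. In SH3, 27 of the 34 lay above 0, where 51.8% of all tested genes did. The 27 include FPR1 and S100A8, which each passed the low-count filter through only 3 samples. With a correction for transcript length the medians were -0.07 in SH2 and 0.17 in SH3, so that the SH2 median changed sign. With it, 14 of the 34 lay above 0 in SH2 and 24 in SH3, where 53.1% and 50.6% of all tested genes did.

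The members are short genes, with a median transcript of 1204 nucleotides against 3182 nucleotides for the tested genes with a known length. With the block and a correction for transcript length, RETN was still called in SH3 against EV (0.72, adjusted p = 0.0445). For the mean of both hairpins, neither RETN (0.42, adjusted p = 0.0970) nor HGF (-0.43, adjusted p = 0.0910) passed with that correction.

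**Figure D2:**
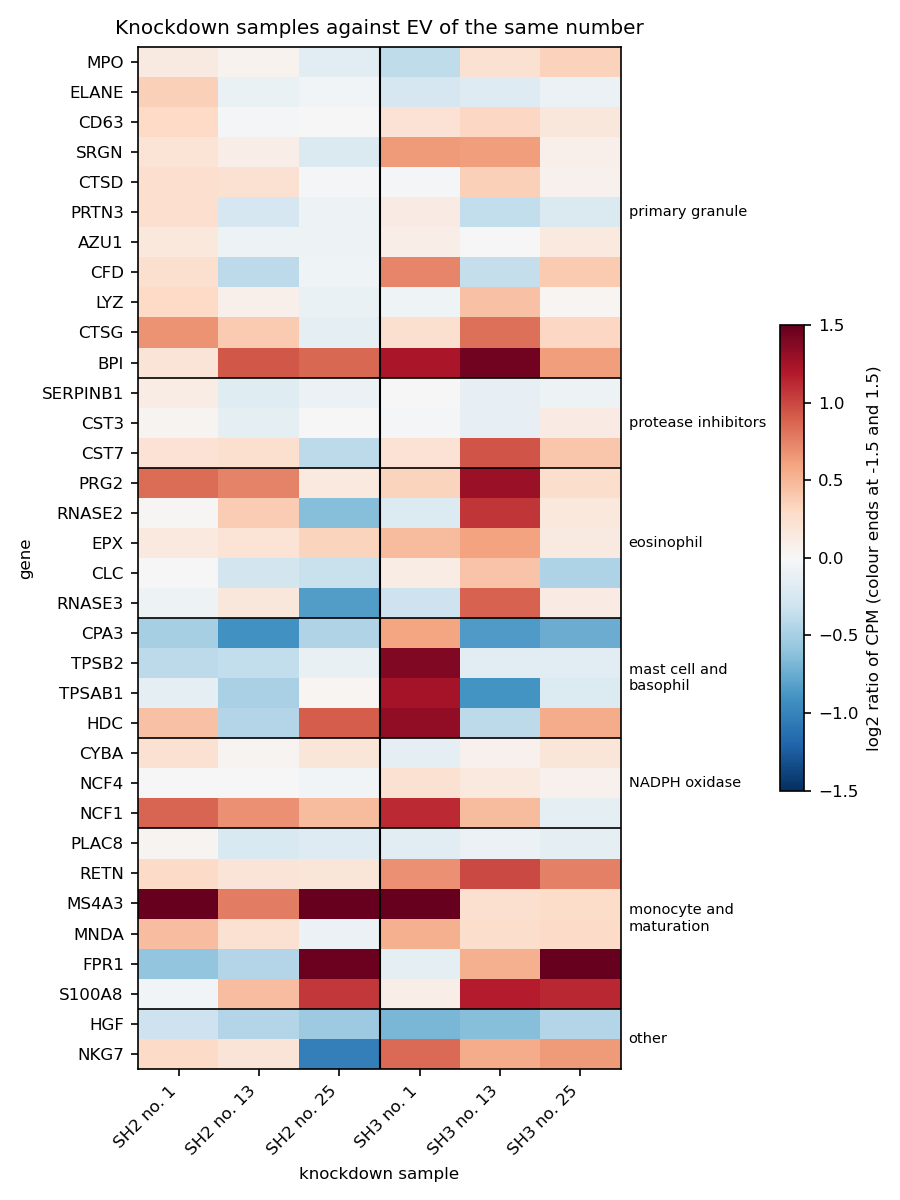
Log2 ratio of CPM in each knockdown sample to the EV sample of the same number, for the 34 tested genes in rows grouped by role and the 6 knockdown samples in columns. RETN and BPI are above 0 and HGF below 0 in all 6 columns, and the mast cell genes are raised in SH3 number 1 alone among the SH3 samples for CPA3, TPSB2 and TPSAB1.

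RETN encodes resistin, a secreted cysteine-rich protein made in humans mainly by myeloid cells (chromosome 19, 7733935 to 7735341, plus strand, GRCh37). RETN was at 5.69, 7.31 and 8.33 CPM in EV, at 6.93, 8.37 and 9.42 CPM in SH2 and at 9.12, 14.6 and 14.1 CPM in SH3. Every SH3 sample exceeded every EV sample, SH2 overlapped EV, and all 6 knockdown samples were above the EV sample of their own number. The SH3 difference from EV was 0.83 on the log2 scale (SE 0.22, adjusted p = 0.930 by edgeR). With the block it was 0.82 (SE 0.11, adjusted p = 0.0238), and the mean of both hairpins differed by 0.52 (SE 0.10, adjusted p = 0.0458). SH3 exceeded SH2 by 0.60 with the block (SE 0.11, adjusted p = 0.0838). The blocked SH3 call held when SH3 number 1 or SH3 number 13 was left out and was lost on leaving out any of the other 7 samples, with adjusted p up to 0.110, while the difference stayed between 0.72 and 0.89. The blocked call for the mean held only without SH3 number 1, with adjusted p up to 0.217 otherwise.

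HGF encodes hepatocyte growth factor, the ligand of the MET receptor, which myeloid cells can store and release (chromosome 7, 81328326 to 81399754, minus strand, GRCh37). It was the only tested member below its same-numbered EV sample in all 6 pairs, and 5 tested members were above theirs in all 6. The pairs share the EV samples, and the share of all genes with such a pattern was not computed. These counts therefore only describe the members. HGF was at 11.4, 8.81 and 14.6 CPM in EV, at 9.17, 6.49 and 10.01 CPM in SH2 and at 7.08, 5.65 and 10.8 CPM in SH3. The groups overlapped, because the samples numbered 25 were highest in every group. Without the block the mean of both hairpins differed from EV by -0.50 (SE 0.24, adjusted p = 0.781). With the block HGF fell by 0.50 (SE 0.10, adjusted p = 0.0458), with -0.43 in SH2 (adjusted p = 0.112) and -0.58 in SH3 (adjusted p = 0.0537). The blocked call for the mean held without SH3 number 1 or SH3 number 25 and was lost without any of the other 7, with adjusted p up to 0.263, while the difference stayed between -0.56 and -0.46.

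The promoters of these 2 genes, the members called under the block, are printed as the 250 bases before the RefSeq start, with capitals for the same motif letters as above.
RETN, chr19:7668799-7669048, plus strand: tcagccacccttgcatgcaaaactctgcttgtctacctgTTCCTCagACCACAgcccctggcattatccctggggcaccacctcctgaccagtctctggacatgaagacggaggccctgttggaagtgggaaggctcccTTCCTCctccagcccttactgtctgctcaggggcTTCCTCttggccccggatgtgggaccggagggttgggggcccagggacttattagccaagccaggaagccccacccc
HGF, chr7:81770048-81770297, minus strand: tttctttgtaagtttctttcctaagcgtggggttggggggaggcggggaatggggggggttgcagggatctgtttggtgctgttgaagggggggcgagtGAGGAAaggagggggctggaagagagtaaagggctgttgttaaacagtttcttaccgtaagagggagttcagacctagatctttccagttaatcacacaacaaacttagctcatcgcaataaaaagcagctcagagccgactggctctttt
The RETN window held a RUNX match on the opposite strand, 203 bases before the start, and PU.1 matches on the opposite strand 211, 111 and 77 bases before it. The RUNX match did not overlap a PU.1 match. The HGF window held a PU.1 match 151 bases before the start and no RUNX or C/EBP match.

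MS4A3, a membrane protein of granulocyte and monocyte precursors, varied widely among the knockdown samples. MS4A3 was at 7.84, 7.11 and 4.93 CPM in EV, at 33.4, 12.1 and 27.3 CPM in SH2 and at 24.2, 8.43 and 5.97 CPM in SH3. All 3 SH2 samples were above all EV samples, and SH3 numbers 13 and 25 were close to EV. SH2 differed from EV by 1.87 (SE 0.53, adjusted p = 0.808), or 1.82 with the block (SE 0.34, adjusted p = 0.0661), and the mean of both hairpins by 1.31 with the block (SE 0.31, adjusted p = 0.0704). None of these passed with all samples. With the block SH2 passed without SH3 number 1 (adjusted p = 0.00139) or SH3 number 13 (adjusted p = 0.0413), and the mean passed without SH3 number 1. DESeq2 with the block called MS4A3 in SH2. Of the other genes of monocytes and maturation, RETN and MNDA were above the same-numbered EV sample in 3 of 3 SH3 samples and PLAC8 in 0 of 3. S100A8 had 15, 4 and 2 counts in EV and 13, 10 and 4 in SH3, too near the floor of 3 counts to compare. The median difference of the 6 tested genes of this role in SH3 with the block was 0.68, against 0.01 for all genes, and RETN alone of them was called by edgeR. The 6 include S100A8 and FPR1, which each passed the low-count filter through only 3 samples, so no conclusion is drawn from this median. PLAC8 was at 50.5, 34.3 and 18.9 CPM in EV, at 52.0, 29.3 and 16.6 CPM in SH2 and at 44.8, 32.4 and 17.1 CPM in SH3. MNDA, a nuclear antigen of myeloid cells, ranged from 3.74 to 6.50 CPM over all samples. FPR1, the formyl peptide receptor, was at 0.100 to 0.691 CPM and passed the filter only through EV number 13 and SH3 numbers 13 and 25. NKG7, a granule membrane protein best known from cytotoxic lymphocytes, was at 0.312 to 1.09 CPM.

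**Figure D3:**
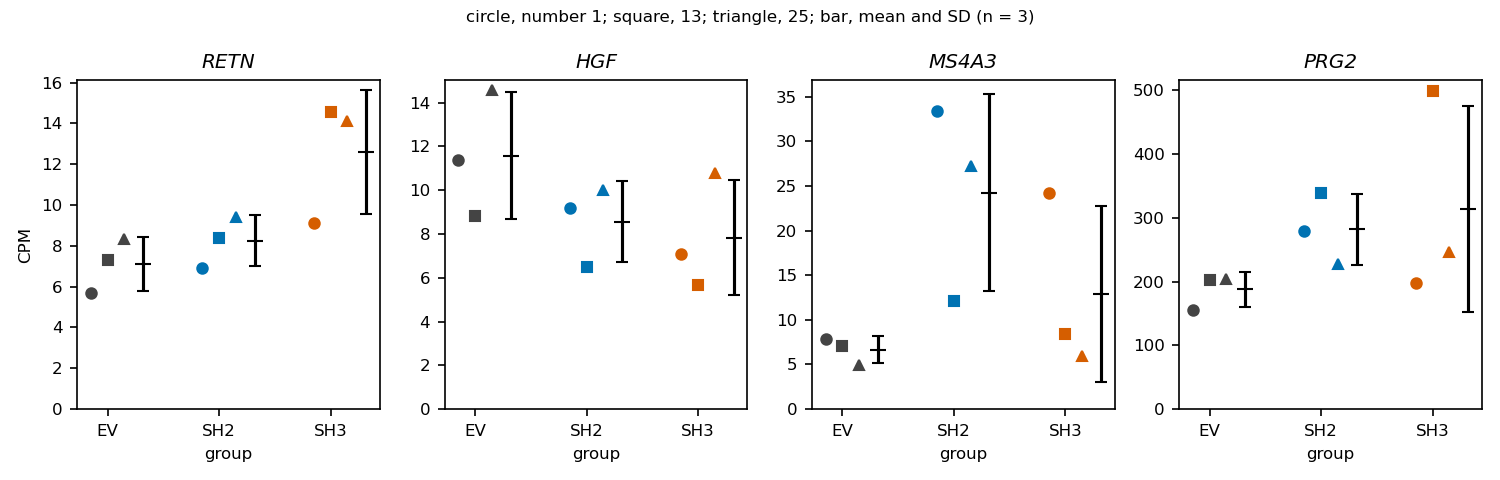
CPM of RETN, HGF, MS4A3 and PRG2 (vertical axes from 0) in each of the 9 samples by group; shapes give the sample number and bars the mean and SD of 3 samples. RETN is highest in SH3, HGF overlaps between groups, MS4A3 spreads from 12.1 to 33.4 CPM within SH2, and 1 SH3 sample of PRG2 reaches 499 CPM.

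The eosinophil granule genes were expressed in all samples and were highest in 1 of them. PRG2 was at 156, 203 and 205 CPM in EV, at 279, 339 and 227 CPM in SH2 and at 197, 499 and 246 CPM in SH3. All 6 knockdown samples were above the EV sample of the same number. SH3 differed from EV by 0.74 (SE 0.31, adjusted p = 0.967), or 0.65 with the block (SE 0.19, adjusted p = 0.131), and without SH3 number 13 by 0.24, or 0.34 with the block. SH2 differed by 0.57 with the block (SE 0.19, adjusted p = 0.165). With the block edgeR called PRG2 in SH2 without SH3 number 1 (adjusted p = 0.0224) or SH3 number 13 (adjusted p = 0.0448). It called PRG2 in SH3 and in the mean of both hairpins only without SH3 number 1. RNASE2, the eosinophil-derived neurotoxin, ranged from 44.6 CPM in SH2 number 25 to 138 CPM in SH3 number 13. EPX, eosinophil peroxidase, which lies beside MPO within 88.2 kb on chromosome 17, was at 18.3 to 33.7 CPM and was above its same-numbered EV sample in 6 of 6 pairs (0.42 in SH3 with the block, SE 0.11, adjusted p = 0.108). RNASE3, eosinophil cationic protein, was at 1.46 to 5.71 CPM, and its transcript matched that of RNASE2 at 88.5% of 720 aligned bases. CLC, the Charcot-Leyden crystal galectin, was at 9.40, 16.6 and 16.4 CPM in EV, at 9.37, 13.8 and 13.0 CPM in SH2 and at 10.2, 22.3 and 11.9 CPM in SH3. Summed over the 5 genes, SH3 number 13 reached 699 CPM, and the other 8 samples lay between 265 and 467 CPM. PRG2 alone made up 499 CPM of that sum. Each of the 5 genes was highest in SH3 number 13, although EPX was nearly as high in SH3 number 1 (33.5 CPM against 33.7). This peak was not particular to eosinophil genes: CTSG, LYZ, SRGN, CD63, CTSD, CST7, NCF4 and RETN were also highest in SH3 number 13.

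The mast cell and basophil genes were highest in another SH3 sample. CPA3, mast cell carboxypeptidase, was at 31.5, 36.8 and 26.8 CPM in EV, at 22.4, 19.6 and 19.6 CPM in SH2 and at 47.3, 20.4 and 15.9 CPM in SH3. All SH2 samples were below all EV samples. CPA3 in SH2 differed from EV by -0.63 (SE 0.34, adjusted p = 0.957), with adjusted p = 0.211 with the block. SH3 differed by -0.29 with the block (SE 0.24, adjusted p = 0.544). Without SH3 number 1, edgeR with the block called CPA3 in SH2, in SH3 and in the mean of both hairpins against EV. In those fits 1604, 368 and 1755 genes were called. TPSB2, a beta tryptase, was at 7.89, 8.64 and 7.43 CPM in EV, at 5.99, 6.70 and 6.86 CPM in SH2 and at 20.6, 7.72 and 6.66 CPM in SH3. TPSAB1, its neighbor on chromosome 16, was at 2.06, 2.24 and 1.80 CPM in EV, at 1.87, 1.60 and 1.84 CPM in SH2 and at 4.90, 1.20 and 1.56 CPM in SH3. The tryptase transcripts were identical at 98.7% of 1165 aligned bases, so the split of reads between them is uncertain. HDC, histidine decarboxylase, which makes histamine, ranged from 0.627 CPM to 3.03 CPM, the latter in SH3 number 1. Summed over the 5 genes of the group, SH3 number 1 was at 76.0 CPM and the other 8 samples at 25.1 to 48.5 CPM. In the same sample ITGA2B, the platelet integrin subunit alpha IIb, was at its highest (144 CPM). The summed megakaryocyte markers, 4 of 5 with counts, were at 98.8 to 110.1 CPM in EV, at 56.6 to 69.9 CPM in SH2 and at 62.7 to 145 CPM in SH3, PF4 had no count, and their part in the result was not tested. TPSB2 differed between SH3 and SH2 by 0.84 (SE 0.37, adjusted p = 0.998) and by 0.14 without SH3 number 1.

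**Figure D4:**
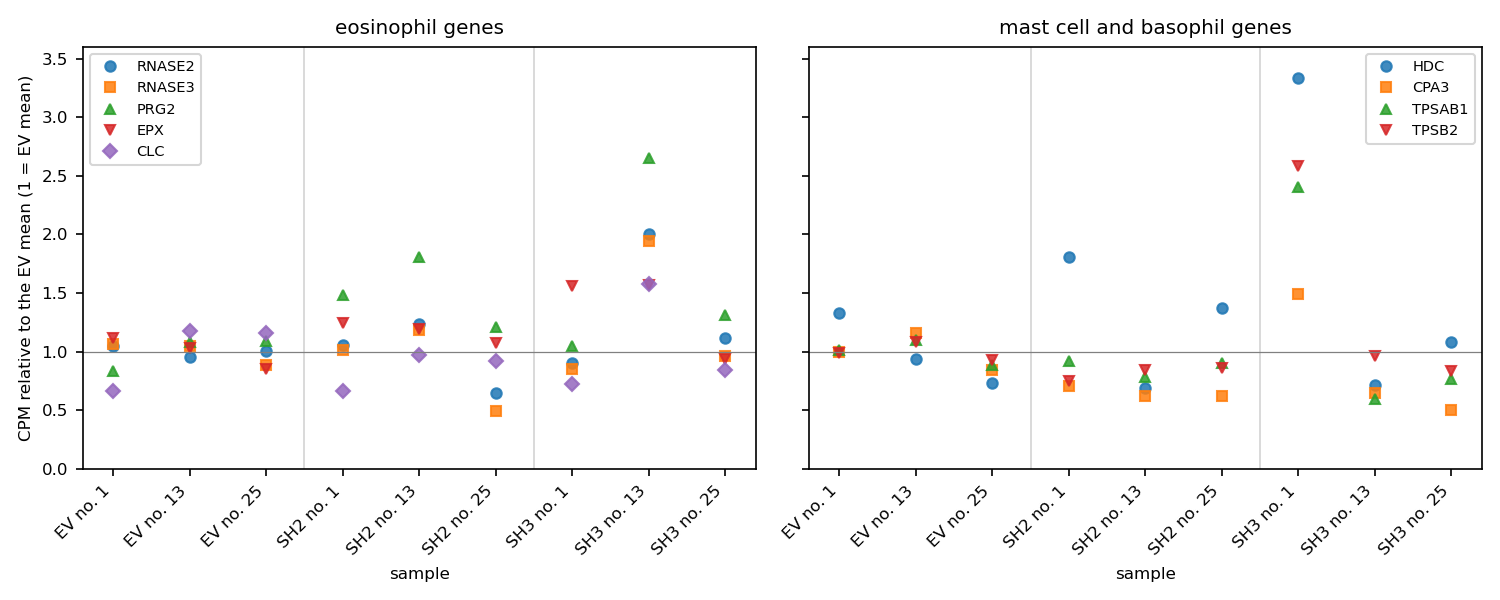
CPM of the eosinophil genes (left) and of the tested mast cell and basophil genes (right), divided by the EV mean of each gene, in the 9 samples; each point is 1 sample and the grey line marks the EV mean. The eosinophil genes peak in SH3 number 13 and the mast cell genes in SH3 number 1.

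Whether the samples numbered 1 departed from the others in the same way in each group was tested as an interaction. No gene passed after adjustment in either comparison with EV (0% of genes). For SH2, 0 members had an unadjusted p under 0.05, where 1.16% of genes did. For SH3, 4 of 34 members did, where 7.89% of genes did. These were TPSB2 (1.54, SE 0.27, adjusted p = 0.513), CPA3 (1.39, SE 0.31, adjusted p = 0.513) and TPSAB1 (1.80, SE 0.43, adjusted p = 0.539), each further above the other numbers in SH3 than in EV, and MPO (-0.66, SE 0.28, adjusted p = 0.618). Each number stands for 1 sample per group, so these values rest on SH3 number 1.

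The oxidase genes showed no called change under the hairpins with all samples. CYBA was at 284, 320 and 301 CPM in EV, at 333, 328 and 340.0 CPM in SH2 and at 257, 335 and 343 CPM in SH3. NCF4 was at 260.3, 285 and 250.3 CPM in EV, at 262, 287 and 243 CPM in SH2 and at 304, 316 and 261 CPM in SH3. NCF1 was at 0.990, 1.46 and 1.80 CPM in EV, at 1.81, 2.35 and 2.49 CPM in SH2 and at 2.14, 2.04 and 1.64 CPM in SH3. SH2 lay above EV for NCF1 by 0.65 (SE 0.27, adjusted p = 0.899), or by 0.66 with the block (SE 0.23, adjusted p = 0.183). With the block it was called only when SH3 number 1 was left out (adjusted p = 0.0421). The NCF1 transcript matched its copy NCF1C at 99.1% of 1349 aligned bases, so its counts are uncertain.

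More genes differed by the number a sample carried than by its hairpin. Between number 1 and the mean of numbers 13 and 25, with group in the model, 46.3% of all genes were called, 24.1% higher and 22.2% lower in number 1. Of the 34 members, 14 were called (41.2%), 10 higher and 4 lower, which is near the share of all genes. S100A8, one of the 10, passed the low-count filter only through the 3 samples numbered 1, so its difference was fixed by the filter. Without it, 13 of 33 members were called. Of the 11 tested primary granule genes BPI, CFD and AZU1 were higher and CTSD and ELANE lower in number 1. Of the 6 tested monocyte and maturation genes S100A8, PLAC8, MS4A3 and MNDA were higher and RETN lower. Of the 4 tested mast cell and basophil genes HDC and CPA3 were higher and none was lower, with a median difference of 0.64. All 4 were highest in SH3 number 1. SERPINB1 was also higher in number 1, and CLC was lower. Without SH3 number 1, CPA3, MS4A3, MNDA and ELANE were no longer called, and HDC still was.

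PLAC8, a small cysteine-rich protein of myeloid and lymphoid cells (chromosome 4, 84011201 to 84058228, minus strand, GRCh37), had the smallest p of the members. It was higher in number 1 by 1.05 (SE 0.07, adjusted p = 2.48e-05), with 44.8 to 52.0 CPM in number 1 and 16.6 to 34.3 CPM in the other 6 samples. Against number 13 alone the difference was 0.62 and against number 25 alone 1.49. SERPINB1 was higher by 0.46 (SE 0.07, adjusted p = 0.000739) and AZU1 by 0.37 (SE 0.06, adjusted p = 0.00138), and neither overlapped the other 6 samples. BPI was higher by 1.02 (SE 0.23, adjusted p = 0.00528). CFD was higher by 0.68 (SE 0.13, adjusted p = 0.00239), but by 0.31 against number 25 alone (adjusted p = 0.118). Along the protease cluster, the ratio of AZU1 to ELANE in CPM was 0.392 to 0.579 in number 1, 0.322 to 0.370 in number 13 and 0.245 to 0.296 in number 25. ELANE itself was lower in number 1 by 0.27 (SE 0.09, adjusted p = 0.0361). Against number 13 alone ELANE differed by -0.04 (adjusted p = 0.817) and against number 25 alone by -0.50 (adjusted p = 0.00424). The ELANE call was lost without SH3 number 1 or SH3 number 13. RETN was lower in number 1, with a log2 difference of -0.49 (SE 0.10, adjusted p = 0.00306). CTSD differed by -0.42 (SE 0.08, adjusted p = 0.00247) and CLC by -0.68 (SE 0.14, adjusted p = 0.00350), and neither overlapped the other 6 samples. By that stricter reading, with all 3 samples numbered 1 above or below the other 6, 26.5% of all genes separated and 7 of 34 members did, the others being CST3, PLAC8 and S100A8. Without S100A8, which the filter fixed, 6 of 33 separated. The PLAC8 promoter, shown because its difference had the smallest p of the members, held no match to the RUNX, PU.1 or C/EBP letters in the 250 bases before the RefSeq start on GRCh38.p14.
PLAC8, chr4:83114730-83114979, minus strand: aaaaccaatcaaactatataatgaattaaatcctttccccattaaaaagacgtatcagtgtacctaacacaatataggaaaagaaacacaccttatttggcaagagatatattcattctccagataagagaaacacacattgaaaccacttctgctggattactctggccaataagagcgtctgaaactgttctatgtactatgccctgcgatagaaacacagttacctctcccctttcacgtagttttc

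**Figure D5:**
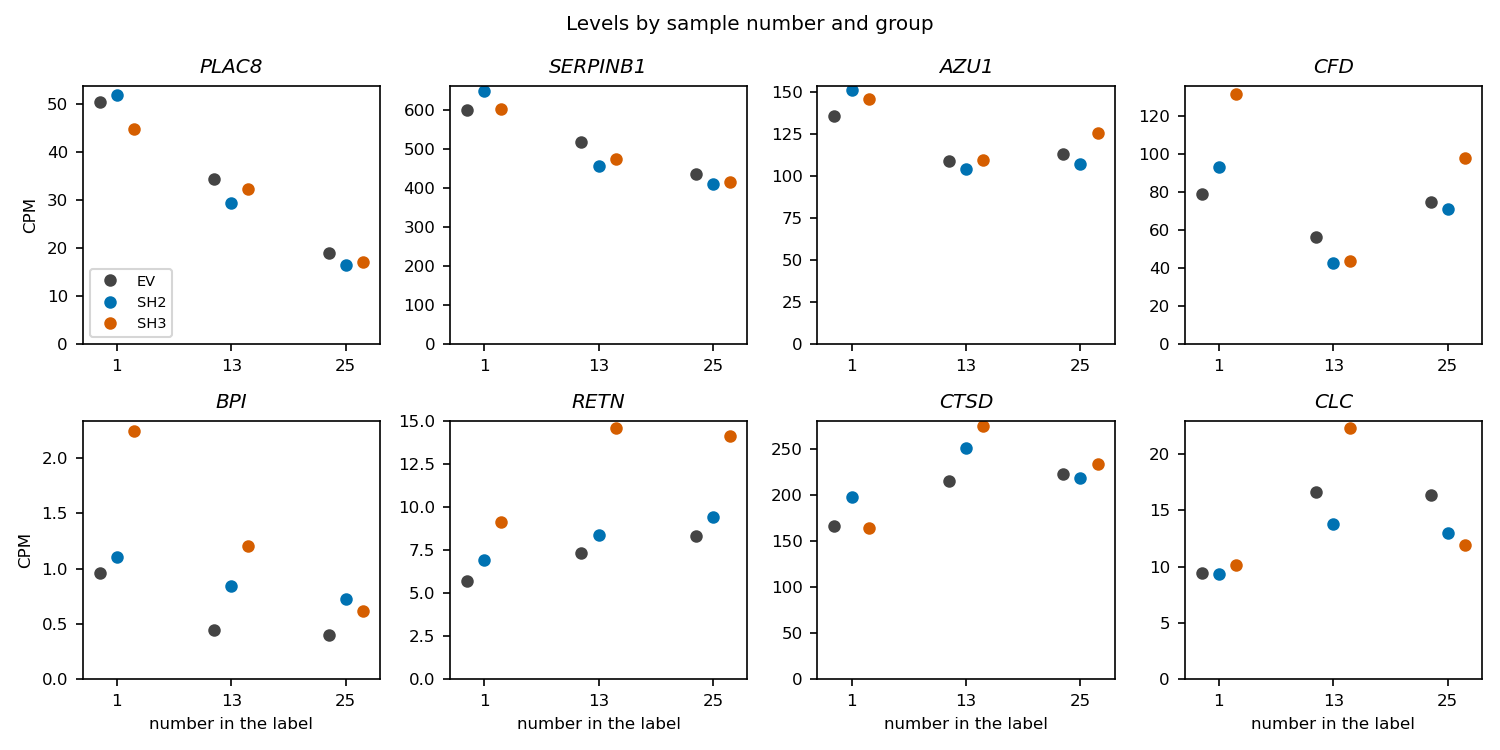
CPM of 8 genes called between number 1 and numbers 13 and 25 (vertical axes from 0), with the number in the label on the horizontal axis and each point 1 sample colored by group. PLAC8, SERPINB1 and AZU1 are higher and CTSD and CLC lower in number 1 in all 3 groups without overlap; RETN differs by number within each group while SH3 stays highest at each number.

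Other genes of the same pathways, 95 in number, of which 65 were tested, were compared in the same fits. With the block none was called in SH2 against EV, where 0.282% of all genes were. In SH3 against EV 1 of 65 was called (1.54%, against 0.416% of all genes), and in the mean of both hairpins 2 of 65 (3.08%, against 1.1%). CD68, a lysosomal glycoprotein of macrophages, rose in SH3 against EV, and HPGDS, the prostaglandin D synthase of mast cells, and CSF3R, the G-CSF receptor, fell in the mean of both hairpins. Among 7 regulators of granule genes (CEBPA, CEBPB, CEBPE, SPI1, GFI1, MYB and RUNX1) none was called under the knockdown. Between numbers, 24 of the 65 (36.9%) were higher and 8 (12.3%) lower in number 1, where 24.1% and 22.2% of all genes were; together 49.2% of the list was called, close to the 46.3% of all genes, and the counts that follow are to be read against these shares. Of 15 tested genes of monocyte and neutrophil maturation, 8 were higher in number 1, among them CSF1R, ITGAX, TYROBP and CLEC7A, and 1, ANPEP, was lower. Of 18 lysosomal genes 6 were higher and 6 lower. Of 10 tested granule and secretory genes STXBP2 was higher and CEACAM6 lower. None of 6 cytotoxic granule genes, such as the granzymes and perforin, passed the filter.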

How the data were processed

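Total RNA of 9 SKNO-1 samples (3 each of EV, SH2 and SH3) was sequenced from poly(A) libraries without strand information. The authors deposited raw counts per RefSeq transcript row on hg19; the submitters' processing notes name STAR, featureCounts and DESeq2, with versions not given in the sources used here. Whether reads with several mapping positions were counted is not stated. From 48104 rows per sample, 1 row per symbol was kept (the highest total; 9509 of 25680 symbols had more than 1). Genes were filtered with filterByExpr (minimum count 10, minimum total 15), scaled by TMM and tested with the quasi-likelihood test of edgeR 4.0.16 (R 4.3.3) on group, with Benjamini-Hochberg adjustment over 14199 genes and a threshold of 0.05. The standard error is the log2 difference divided by the square root of F.

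Same-numbered samples correlated in their deviations from group means (9 pairs, 0.398 to 0.731; other pairs -0.616 to 0.306), so a fit with the number as a replicate block was read beside the main fit. Pairing comes from this check and not from the labels. The number comparison used group plus number. The interaction fit had 3 residual degrees of freedom. Alternatives were DESeq2 1.42.0, a length correction and leaving out each sample. Scripts were tested on simulated counts. Transcript lengths and GRCh37 positions came from GENCODE 44 mapped to GRCh37. Values per sample are given for members among the 12 highest in EV, those called (up to the 8 smallest p in each comparison) and those with the 3 smallest p; others are given by range. The members and lists were chosen with earlier results of these data known. Counting intervals were not needed, and floors of 3 counts cover counting error only.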

Additional observations from a re-analysis of the deposited data

Results flagged for a closer look

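Within the 6 samples numbered 13 and 25, 3 of the 34 tested genes had a sample that stood apart from the others by Dixon's criterion. The criterion flags about 1 in 20 uniform groups by chance. That rate does not apply here, because the 6 samples mix EV, SH2 and SH3 and both numbers. LYZ reached 79.4 CPM in SH3 number 13, and the next sample was at 61.9 CPM. SRGN reached 327 CPM in the same sample, and the next was at 238 CPM. MS4A3 reached 27.3 CPM in SH2 number 25, and the next was at 12.1 CPM. Samples numbered 1 were outside this check. Among them MS4A3 was at 33.4 CPM in SH2 and SRGN at 299 CPM in SH3.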

How the results depend on the processing

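Without a block no gene passed by edgeR in any knockdown comparison with all samples. The genes called in SH2 against EV, SH3 against EV, the mean of both against EV and SH3 against SH2 numbered 40, 59, 156 and 15 with the replicate block, 22, 26, 56 and 11 with DESeq2 without the block, 369, 474, 629 and 155 with DESeq2 and the block, and 7, 29, 14 and 17 with the block and the length correction. The members called, in the same order, were 0, 1, 2 and 0 with the block, 1, 5, 2 and 3 with DESeq2 and the block, and 0, 1, 0 and 0 with the block and the length correction. Leaving out 1 sample gave 0 to 0, 0 to 1, 0 to 2 and 0 to 0 genes and 0 members without the block. With the block it gave 0 to 1604, 1 to 368, 2 to 1755 and 0 to 257 genes, and 0 to 5, 0 to 6, 0 to 8 and 0 to 3 members. The highest of these came without SH3 number 1, except for 257 genes, which came without SH3 number 13 (103 without SH3 number 1). Without SH3 number 13 the blocked counts for the first 3 comparisons were 265, 93 and 90 genes, and the mean gave 88 without SH3 number 25 and 4 without EV number 13. Between numbers the calls were 4813 to 6282 genes and 11 to 19 members on leaving out a sample. Number without group as a term called 9 members. The share of all genes called in that fit is not given, so nothing is read from this count. Of 400 alternative values for 16 named knockdown results 370 stayed on their side of the threshold, 30 passed it and none changed direction; of 160 for 8 number results, 158 stayed and 2 were lost, RETN with number alone (-0.52, adjusted p = 0.121) and CFD against number 25 alone (0.31, adjusted p = 0.118). The cause of these differences was not tested. Genes under about 3 counts per sample cannot be compared at this depth.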
